A study of Mus musculus with 8 samples.

Results

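The complement components and regulators described here are 8 genes of the 55401 in the deposited count table: C3, C4b, Cfb, Cfi, Cfd, Hc, Cd55 and Cd59a. They were taken as a list of symbols, each of which matched 1 gene identifier, and all 8 passed the filter on low counts. RNA was sequenced from 8 mouse libraries labelled as airway cells, collected 10 days after tamoxifen. The 4 control libraries have the genotype Scgb1a1cre; Cdh1F/+ and the 4 labelled mutants the genotype Scgb1a1cre; Cdh1F/F. Both groups therefore received tamoxifen and carry a Cre recombinase under Scgb1a1, which club cells of the airway express, and the controls already hold 1 floxed allele of Cdh1, the gene of the adhesion protein E-cadherin. Ages are not given in the sources used here, and the labels give neither the sorted fraction of a library nor whether each is 1 animal. The p-values cover only how these libraries vary, which may be technical.

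Complement is a cascade of plasma and cell-surface proteins that marks particles for uptake, draws in leukocytes and can pierce membranes. The classical, lectin and alternative routes each build an enzyme that cleaves C3, and the products lead on to cleavage of C5, which mouse geneticists call Hc, and to the membrane attack complex. Regulators in plasma, such as factor I, and on cell surfaces, such as CD55 and CD59, hold the cascade back. The liver makes most of the plasma proteins, while lung epithelium, fibroblasts and macrophages make some of them locally.

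Total counts ran from 15111663 to 21673654 per library, so that 3 counts correspond to 0.136 to 0.207 CPM (counts scaled to the library's effective total). Cdh1 summed over the whole gene was 383.5 ± 44.7 CPM in the controls against 403.4 ± 6.08 CPM (SD, n = 4 each), so it gave no check of the labels. The epithelial gene Epcam rose 1.53-fold, from 67.1 ± 6.91 CPM, and the endothelial gene Pecam1 fell 1.39-fold, from 1173 ± 183 CPM (SD, n = 4 each). Ptprc, the general leukocyte gene, stood at 111.3 ± 64 and 99.99 ± 9.48 CPM, with 204.4 CPM in control 1. Endothelial and leukocyte transcripts were thus present, while the design text speaks of depleting both kinds of cell. Controls 2 and 3 differed from each other by a chi-square of 4.72 per gene, while the other pairs of controls differed by 20 to 45.3 and pairs of labelled mutants by 6.13 to 12.8. Where leaving out controls 1 and 4 or controls 2 and 3 changed the call of a member or ended the call of another complement gene, that value is given.

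Of the members, 3 are serine proteases or hold a protease domain: factor I (Cfi), factor D (Cfd) and factor B (Cfb). The coding sequence around the codon of their catalytic serine, which is in capitals, is shown to introduce Cfi beside its relatives. Cfi was the only member that passed the threshold given below.
Cfi: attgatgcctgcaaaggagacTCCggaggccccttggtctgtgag
Cfd: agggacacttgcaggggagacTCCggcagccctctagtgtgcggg
Cfb: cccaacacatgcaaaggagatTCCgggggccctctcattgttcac
These 45 bases were read from GENCODE release M21 transcripts on GRCm38. Those of Cfi lie in exon 14 of 14 (chr3:129874938-129874982, plus strand), those of Cfd span the junction of exons 4 and 5 (chr10:79892235-79892454, plus strand), and those of Cfb span that of exons 16 and 17 (chr17:34856901-34857019, minus strand). The codon of the serine is the same in each.

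A gene was called where edgeR's quasi-likelihood test gave p under 0.05 after adjustment over all 16964 genes tested. Of the 8 members, 1 was called higher in labelled mutants and 0 lower. Over all genes 7.81% were called, 5.45% higher and 2.36% lower, so 1 of 8 is near the background. At an unadjusted p under 0.05 (edgeR), 2 members were higher and 1 lower, while 4283 of the 16964 genes changed in either direction. DESeq2 called 2 members higher and 0 lower, against 1336 and 939 of the 16938 genes it tested. With limma-voom 1 member was higher and 0 lower, against 986 and 375 of all genes. The members' median log2 fold change was -0.03, against -0.006 over all genes tested. Control and labelled mutants did not overlap for 2 members, Cfi and Hc, and for 16.8% of all genes tested. Since these are bulk libraries, fewer cells of a type and less RNA per cell cannot be told apart.

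**Figure D1:**
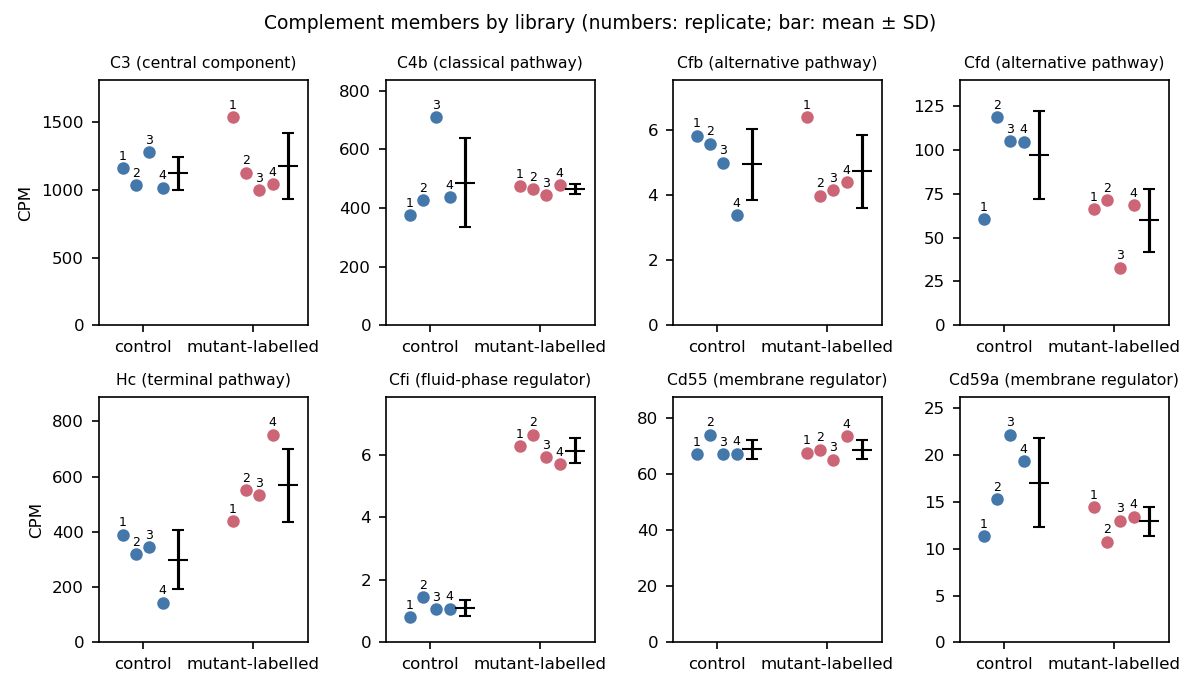
CPM of each member (vertical axis, from 0) in the 4 control and 4 labelled mutants, with the replicate number beside each point and the mean ± SD as a bar. Cfi separates the groups widely and Hc narrowly, with control 1 at 390.6 and labelled mutant 1 at 439.1 CPM, and the other 6 members overlap.

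Cfi encodes factor I, the plasma protease that cuts C3b and C4b and so stops the enzymes that cleave C3 and C5. Its gene lies at chr3:129835884-129875332 on the plus strand (ENSMUSG00000058952.12). In controls 1 to 4 it stood at 0.819, 1.45, 1.06 and 1.08 CPM. In labelled mutants 1 to 4 it stood at 6.27, 6.65, 5.94 and 5.71 CPM. Every labelled mutant lay above every control, with 17 to 21 counts per control library and 106 to 126 per labelled mutant. Cfi rose 5.62-fold, a log2 fold change of 2.49 ± 0.19 (SE), with adjusted p = 8e-05 (edgeR) and a ratio between 4.19 and 7.54 at 95% confidence. It was called in all 19 alternatives run, with log2 fold changes from 2.30 to 2.69 and adjusted p from 2.33e-24 to 0.00142 (edgeR, DESeq2 or limma). Even so it was sparse, and per length of exon it ranked the lowest of the 8 members in controls, at 0.495 ± 0.117 FPKM (CPM per kilobase of exon, SD, n = 4).

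Libraries that differed in Cfi also differed in several cell type markers, from lists written with earlier results of these data known. Hepatocyte genes, a sign of liver RNA, were low in both groups. Their 7 genes summed to 3.90 to 5.995 CPM in controls and 3.35 to 4.78 CPM in labelled mutants. Cfi itself stood at 0.819 to 1.45 CPM in controls and 5.71 to 6.65 CPM in labelled mutants. Of the 7 hepatocyte genes, 3 passed the filter. Apob, the most abundant of them in controls, stood at 1.74 ± 0.564 and 1.54 ± 0.57 CPM. The 7 goblet cell genes summed to 122.9 to 230.7 CPM in controls and 643.5 to 1057 CPM in labelled mutants, and 7 of 7 were called higher. The 7 club cell genes summed to 25160 to 27610 and 8515 to 10730 CPM, with 5 of 7 called lower. Of 8 ciliated cell genes, summing to 558.2 to 637.5 and 823.5 to 1008 CPM, 7 were called higher. The part of these cell types in the change of Cfi was not tested. The genes whose log2 CPM over the 8 libraries was most like that of Cfi were Cldn4, a tight junction claudin (Pearson r = 0.997), Ppp1r14d, an inhibitor of a protein phosphatase (r = 0.996), and Clu, a secreted chaperone that also blocks the membrane attack complex (r = 0.996). All 3 were called higher, by 12.8-fold, 4.05-fold and 10.3-fold, and the likeness is largely the difference between the groups.

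Factor I needs a cofactor to cut its substrates, and the genes of 2 membrane cofactors are described here. Cr1l, which encodes Crry, the widespread cell-surface cofactor of mice, was at 102.6 ± 11.7 CPM in controls and fell 1.26-fold, to 81.4 ± 2.88 CPM (SD and n = 4 for both, log2 fold change -0.33 ± 0.09 SE, adjusted p = 0.0457). That call was lost without control 2 or 3 or any 1 of labelled mutants 1 to 4, with adjusted p up to 0.121, and without controls 2 and 3 together (0.139). Cd46, another membrane cofactor, stood at 4.93 ± 0.718 and 4.48 ± 0.419 CPM with an adjusted p of 0.624. Part of its exons (14.2%) is shared with other genes.

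C3 is the component on which all routes converge, and it was the most abundant member. Its gene lies at chr17:57203970-57228136 on the minus strand (ENSMUSG00000024164.15). Controls 1 to 4 stood at 1163, 1036, 1281 and 1018 CPM. Labelled mutants 1 to 4 stood at 1537, 1128, 1000 and 1044 CPM. The groups overlapped throughout, with labelled mutant 1 the highest of the 8 and labelled mutant 3 the lowest. The log2 fold change was 0.07 ± 0.14 (SE, adjusted p = 0.807), and the ratio lay between 0.837 and 1.31 at 95% confidence. Without labelled mutant 1 the log2 fold change was -0.09.

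C4b encodes the C4 of the classical and lectin routes, the partner of C2 in their C3-cleaving enzyme. Its gene lies at chr17:34728380-34743882 on the minus strand (ENSMUSG00000073418.4). It stood at 374.8, 426.2, 709.6 and 436.2 CPM in controls 1 to 4, and at 475.3, 463.7, 443.0 and 477.5 CPM in labelled mutants 1 to 4. Control 3 was far above the other controls, while the labelled mutants lay close together, with a coefficient of variation of 3.4% against 31.0% in controls. The log2 fold change was -0.07 ± 0.18 (SE, adjusted p = 0.849), and without control 3 it was 0.17. At 95% confidence the ratio lay between 0.725 and 1.26.

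The mouse has a near copy of C4b, C4a, and the authors' counting left out reads that map to both. Their 30 most different coding bases without a gap are shown as the stretch where the copies are easiest to tell apart, with the 9 differing bases in capitals.
C4b: aGGtggtggctCGagggGTtttTgattTaG
C4a: aATtggtggctAAagggACtttGgattCaA
They lie in exon 21 of 41 of both transcripts, at chr17:34735436-34735465 and chr17:34816092-34816121 on the minus strand. Over the 5214 coding bases of C4b the copies were 96.0% identical, and 16.4% of its 100-base windows occurred unchanged in the C4a transcript. Cd55 and its neighbour Cd55b were 90% identical over 1170 coding bases, with 15.6% of such windows shared, and Cd59a and Cd59b 78.5% identical over 369 coding bases, with 0 windows shared. Fragments of C4b and Cd55 that fit both copies are therefore missing from their levels.

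Cfd encodes factor D, the protease that cuts factor B and starts the alternative route. It is also known as adipsin because fat cells make it in large amounts. Its gene lies at chr10:79890853-79892655 on the plus strand (ENSMUSG00000061780.6). It stood at 60.7, 118.7, 105.1 and 104.8 CPM in controls 1 to 4, and at 66.4, 71.4, 32.9 and 68.6 CPM in labelled mutants 1 to 4. Control 1 lay below 3 of the labelled mutants, so the groups overlapped, and labelled mutant 3 was the lowest of all. Means were 97.3 ± 25.3 and 59.8 ± 18.04 CPM (SD, n = 4 each), and the log2 fold change was -0.70 ± 0.26 (SE, adjusted p = 0.136). Without control 1 the log2 fold change was -0.87 and passed the threshold (adjusted p = 0.0333), and without labelled mutant 3 it was -0.50 (0.206).

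Genes of fat cells had a similar distribution over the libraries. Adipoq, the hormone adiponectin, stood at 9.83, 15.8, 15.8 and 13.99 CPM in controls and 8.75, 7.74, 3.70 and 8.60 CPM in labelled mutants, and Car3, the most abundant of the list, at 78.0 ± 23.1 and 41.7 ± 11.8 CPM (SD, n = 4 each). Of 8 fat cell genes, 7 passed the filter and 0 were called by edgeR, with 5 lower at an unadjusted p under 0.05, 4 called lower by DESeq2 and 0 by limma-voom. Over all genes, 4283 of 16964 changed in either direction at that unadjusted p, and DESeq2 called 939 of 16938 lower. The median log2 fold change of the fat cell genes was -0.81. The groups did not overlap for 5 of the 8, against 16.8% of all genes tested. Labelled mutant 3 was the lowest of the 8 libraries for 7 of the 8 fat cell genes. The list summed to 152.8 CPM in control 1, against 206.4 to 237.3 CPM in the other controls, and to 76.7 CPM in labelled mutant 3, against 135.3 to 140.8 CPM in the other labelled mutants. Cfd was thus lowest within its group in the same libraries in which the list's sum was lowest. Gene by gene this did not hold throughout. Among controls Plin1, Lep and Pparg were lowest in control 3, at 7.94, 0.470 and 7.64 CPM, against 8.33, 0.482 and 8.24 CPM in control 1. The part of fat cells in the level of Cfd was not tested.

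**Figure D2:**
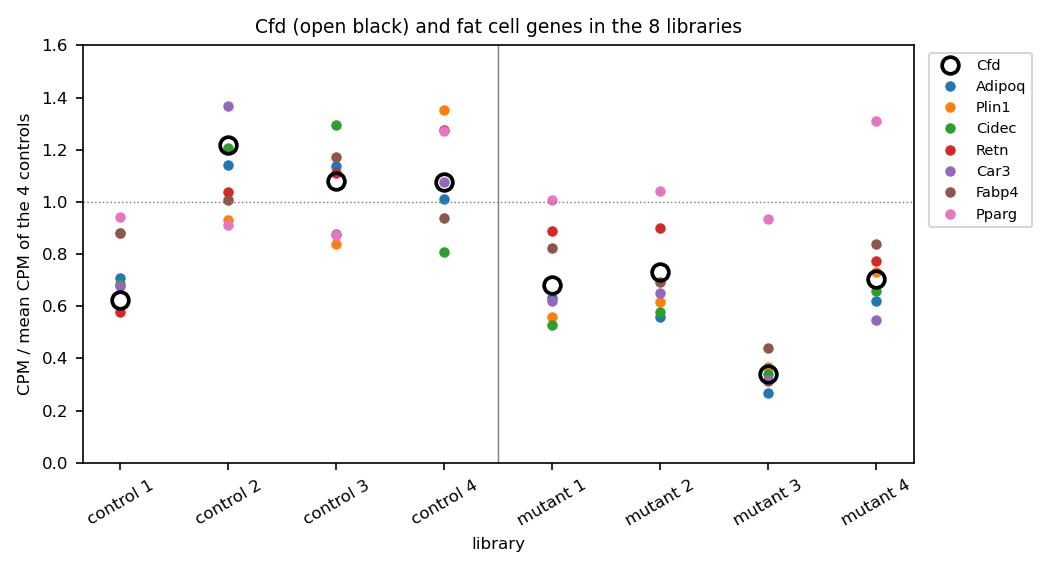
CPM of Cfd (open black circles) and 7 fat cell genes in each library, divided by the mean CPM of that gene in the 4 controls (dotted line at 1). Control 1 and labelled mutant 3 are low for Cfd and for most fat cell genes, while Pparg, a fat cell regulator also known in macrophages, stands near 1 in both.

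Cfb encodes factor B, which carries the protease of the alternative route's C3-cleaving enzyme. Its gene lies at chr17:34856374-34862518 on the minus strand (ENSMUSG00000090231.10). It stood at 5.83, 5.58, 4.997 and 3.38 CPM in controls 1 to 4, and at 6.39, 3.98, 4.15 and 4.39 CPM in labelled mutants 1 to 4. The groups overlapped, with labelled mutant 1 the highest and control 4 the lowest. The log2 fold change was -0.07 ± 0.22 (SE, adjusted p = 0.881), and at 95% confidence the ratio lay between 0.681 and 1.34.

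The level of Cfb is bounded by how reads were assigned. By the exon coordinates of the deposited table, 2246 of its 2825 exon bases (79.5%) are also exon bases of Gm20547, a predicted gene whose exons run through C2 and Cfb on the same strand, and the authors' counting left out fragments that fit more than 1 gene equally. Gm20547 itself received 1 count over the 8 libraries. Cfb had 66 to 121 counts per library, and fragments lying wholly over the shared bases could not be among them. Of the 579 bases that remain, 467 form 1 stretch at the start of the gene. Per kilobase of all exons Cfb stood at 1.75 ± 0.389 FPKM in controls, and per kilobase of the bases not shared its mean was 8.54 in controls and 8.16 in labelled mutants. Where the counted fragments lay is not known, since a pair with 1 read over a shared exon can still be assigned to Cfb, so neither length is exact.

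**Figure D3:**
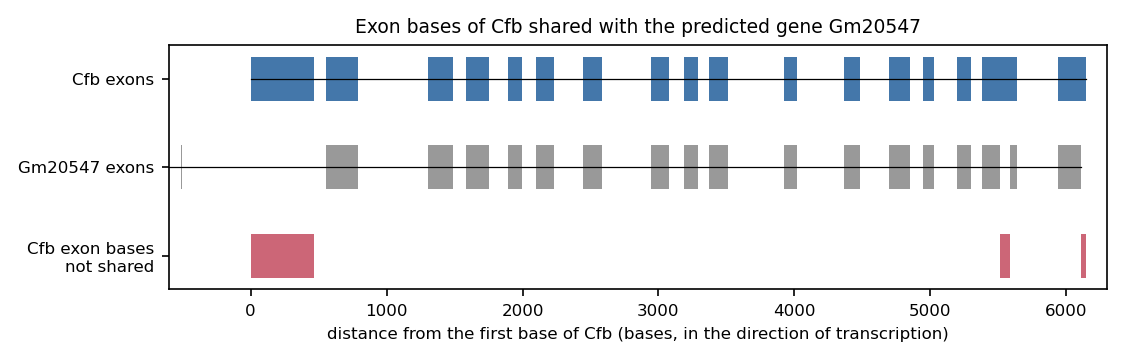
Exons of Cfb and of the predicted gene Gm20547, and the exon bases of Cfb that Gm20547 does not share, by distance from the first base of Cfb in the direction of transcription. Of the 3 stretches not shared, the longest has 467 bases and lies at the start.

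Hc encodes C5, the precursor of the leukocyte attractant C5a and of C5b, which seeds the membrane attack complex. Its gene lies at chr2:34983331-35061438 on the minus strand (ENSMUSG00000026874.10), and 76 of its 6265 exon bases are shared with an antisense gene, Gm13449, which had 5 to 31 counts per library. Controls 1 to 4 stood at 390.6, 320.5, 344.0 and 144.1 CPM. Labelled mutants 1 to 4 stood at 439.1, 550.5, 533.2 and 752.3 CPM. Every labelled mutant lay above every control, control 4 was far below the other controls, and labelled mutant 4 was the highest. Means were 299.8 ± 107.8 and 568.8 ± 131.8 CPM (SD, n = 4 each), with a log2 fold change of 0.92 ± 0.28 (SE).

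Hc did not pass the threshold (edgeR, adjusted p = 0.0799), and at 95% confidence its ratio lay between 1.22 and 2.94. Before adjustment its p was 0.00899 in edgeR's quasi-likelihood test. It was called by DESeq2 (adjusted p = 0.0111), and by edgeR without control 1 (0.0378), without control 4 (0.0359) and without both (0.0237). In 15 of 19 alternatives it was not called, with adjusted p up to 0.253, while the log2 fold change stayed between 0.69 and 1.09. Alveolar type II cells and macrophages are among the lung cells known to make C5. The 7 alveolar type II genes summed to 22390 to 32040 CPM in controls and 24560 to 30820 CPM in labelled mutants, so these ranges overlapped. Of 10 macrophage genes, 4 were called higher (Cd68, Mrc1, Chil3 and Cd14, with log2 fold changes from 0.60 to 1.07). The other macrophage genes were not called. Of these, Siglecf and Adgre1 had log2 fold changes of 0.52 and 0.29, and Csf1r, Marco, Ccr2 and Lyz2 of -0.36, -0.21, -0.07 and -0.06. The list's sum, dominated by Lyz2, ran from 5777 to 7935 and from 6134 to 8410 CPM. The part of either cell type in the level of Hc was not tested.

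Cd55 and Cd59a encode membrane regulators: CD55 speeds the decay of the C3-cleaving enzymes, and CD59 blocks the last step of the membrane attack complex. Cd55, at chr1:130439027-130462744 on the minus strand, stood at 67.1, 74.1, 67.1 and 67.3 CPM in controls 1 to 4 and at 67.6, 68.8, 65.2 and 73.5 CPM in labelled mutants 1 to 4. The exons of Cd55 share 102 of 4853 bases with an antisense gene, Gm16083. Cd55 had the lowest coefficient of variation of the members in controls, 5.0%, and in labelled mutants its 5.1% was second to the 3.4% of C4b. The log2 fold change was -0.0019 ± 0.07 (SE, adjusted p = 0.989), and at 95% confidence the ratio lay between 0.901 and 1.11.

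Cd59a lies at chr2:104095801-104115354 on the plus strand. It stood at 11.3, 15.3, 22.2 and 19.3 CPM in controls 1 to 4 and at 14.5, 10.7, 13 and 13.4 CPM in labelled mutants 1 to 4. Controls 2, 3 and 4 lay above all labelled mutants and control 1 below 3 of them. The log2 fold change was -0.40 ± 0.19 (SE, adjusted p = 0.235). Without control 1 it was -0.55 and passed the threshold (0.0373), as it did at -0.55 without controls 1 and 4 (0.0204).

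Set against exon length, the order of the members in controls was C3 at 218.6 ± 23.9, Cfd at 105.6 ± 27.4, C4b at 85.5 ± 26.5, Hc at 47.9 ± 17.2, Cd55 at 14.2 ± 0.716, Cd59a at 9.40 ± 2.61, Cfb at 1.75 ± 0.389 and Cfi at 0.495 ± 0.117 FPKM (SD, n = 4 each). Among these neighbours only Cfd and C4b overlapped between libraries. In labelled mutants the order was C3 at 228.9 ± 47.8, Hc at 90.8 ± 21.03, C4b at 81.6 ± 2.77, Cfd at 64.9 ± 19.6, Cd55 at 14.2 ± 0.717, Cd59a at 7.12 ± 0.863, Cfi at 2.77 ± 0.186 and Cfb at 1.67 ± 0.397 FPKM. There Hc overlapped with C4b and with Cfd, while the lowest C4b lay just above the highest Cfd. The mean level of Hc was thus below those of Cfd and C4b in controls and above both in labelled mutants. The order of Cfi and Cfb in labelled mutants depends on the length used: per kilobase of the bases that Cfb does not share, its mean of 8.16 lay above the 2.77 of Cfi.

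**Figure D4:**
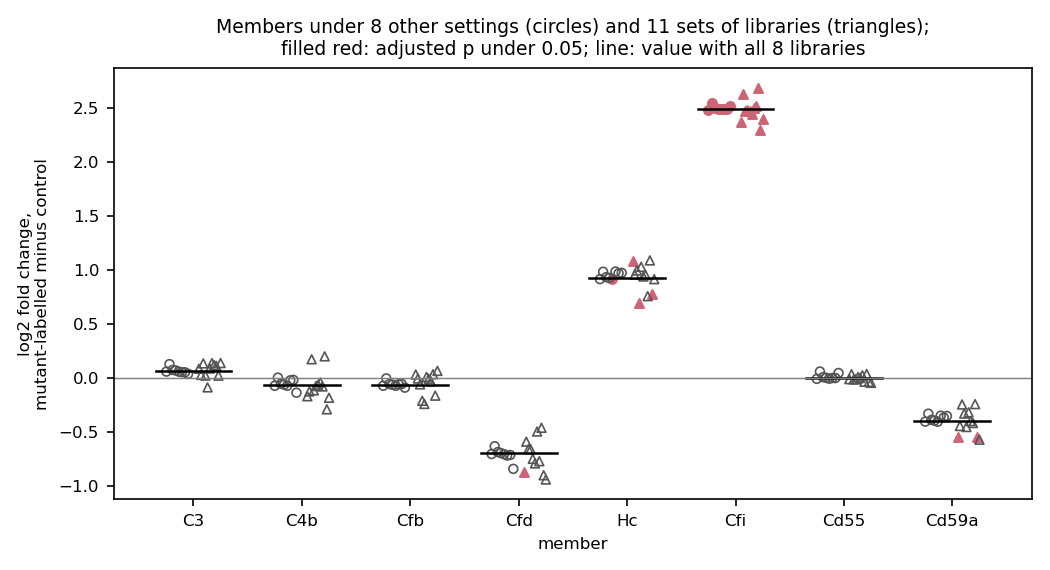
Log2 fold change of each member (vertical axis, mutant-labelled minus control) under 8 other settings of the test (circles) and 11 sets of libraries (triangles), with filled red symbols where the adjusted p was under 0.05 and a line at the value with all 8 libraries. Only Cfi is filled throughout, Hc is filled in 4, Cd59a in 2 and Cfd in 1, and C3, C4b, Cfb and Cd55 scatter about 0.

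The rest of the pathway was read from a list of 50 other complement genes, of which 35 passed the filter. Of these, 5 were called higher (Clu, Fcna, Cpn2, Csmd1 and C1qc) and 2 lower (Cr1l and Vtn), 7 of 35 against the background of 7.81%. The list was written with earlier results of these data known, so its share of calls is no test. The median log2 fold change of the 35 was 0.13. Clu, the terminal inhibitor clusterin, was by far the largest change. It stood at 220.4, 338.3, 329.5 and 312.4 CPM in controls and at 3265, 3349, 2955 and 2830 CPM in labelled mutants, a 10.3-fold rise (log2 fold change 3.37 ± 0.15 SE, adjusted p = 3.31e-06). Its call held in all 19 alternatives. Leaving out controls 2 and 3 reduced the list's calls to 1 higher and 0 lower by edgeR (DESeq2 on all libraries gave 5 and 4), and leaving out controls 1 and 4 gave 8 and 8.

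**Figure D5:**
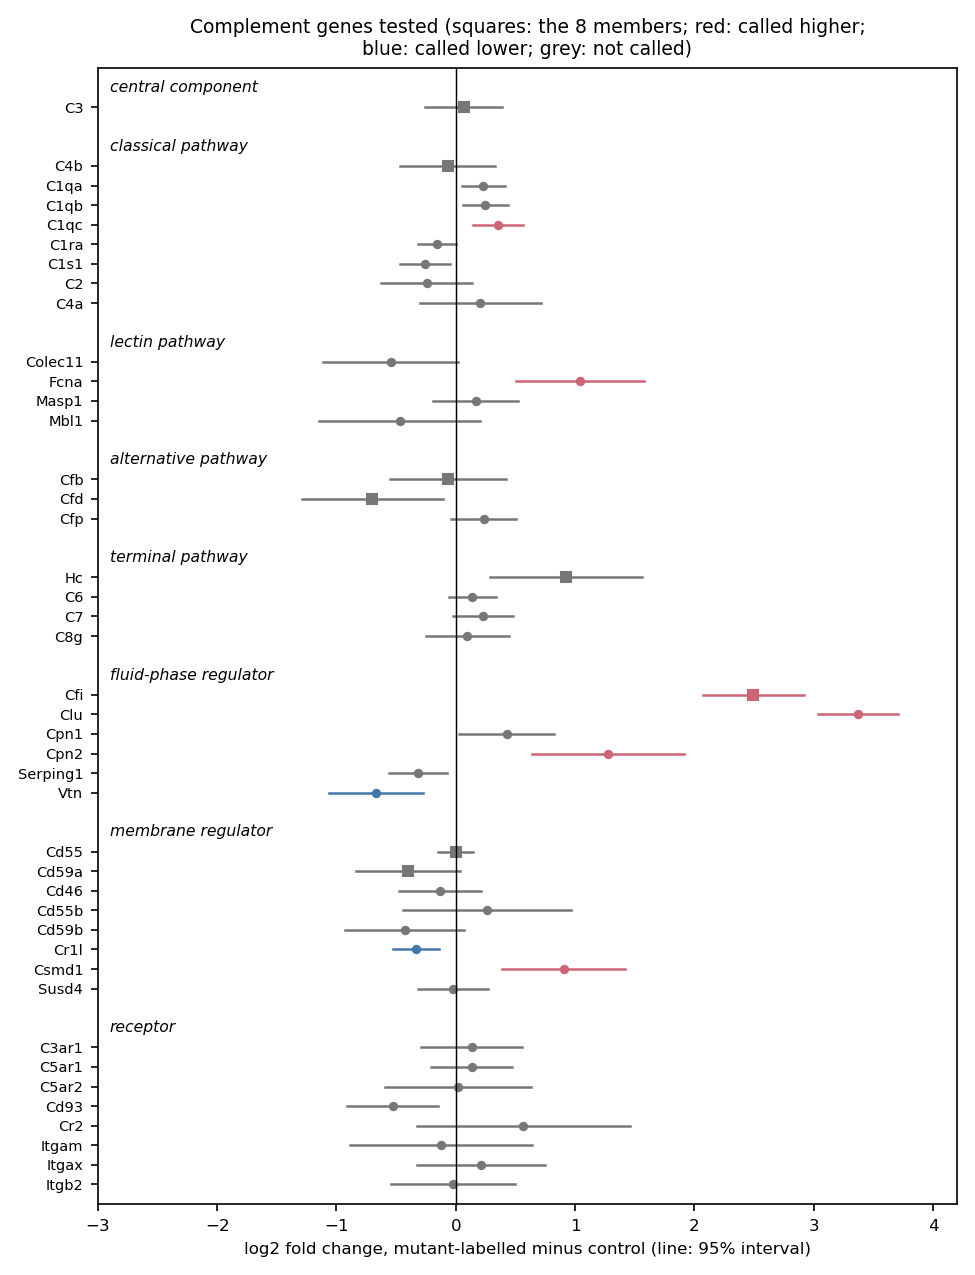
Log2 fold change (points) with its 95% interval (lines) for 42 of the 43 complement genes tested, grouped by role, with the 8 members as squares and calls in red (higher) or blue (lower). Cfi and Clu, both regulators in plasma, stand apart at 2.49 and 3.37, and most other intervals include 0.

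Among other regulators in plasma, Cpn2, a subunit of the carboxypeptidase that inactivates C3a and C5a, rose 2.42-fold from 0.793 ± 0.304 to 1.95 ± 0.401 CPM (SD, n = 4 each). Vtn, which encodes vitronectin, an inhibitor of the membrane attack complex, fell 1.59-fold from 24.6 ± 5.96 to 15.4 ± 1.75 CPM. Adjusted p were 0.0265 and 0.0480 (edgeR). The call of Cpn2 was lost without control 2 or 3 or labelled mutant 1, 2 or 3 (adjusted p up to 0.0819), and that of Vtn without any 1 library other than control 1 (up to 0.138). Without controls 2 and 3 the adjusted p of Cpn2 was 0.125 and that of Vtn 0.206. Serping1, which encodes the C1 inhibitor, stood at 565.7 ± 76.4 and 453.1 ± 32.7 CPM with an adjusted p of 0.106. Control 1, at 451.2 CPM, lay among the labelled mutants.

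The first component of the classical route was measured through several genes. C1qc, a chain of the recognition protein C1q, which macrophages make, rose 1.28-fold from 54.9 ± 3.91 to 70.1 ± 7.99 CPM (SD, n = 4 each, adjusted p = 0.0487). Its call was lost in 13 of 19 alternatives, including the omission of any 1 library other than control 1 (adjusted p up to 0.138) and of controls 2 and 3 (0.0817). The genes of the other chains, C1qa and C1qb, were not called by edgeR. They stood at 64.5 ± 4.42 against 75.6 ± 6.01 CPM (adjusted p = 0.110) and at 66.8 ± 5.23 against 79.2 ± 6.90 CPM (adjusted p = 0.107). The proteases that C1q activates, C1s1 and C1ra, stood at 173.0 ± 20 against 144.4 ± 8.77 CPM (adjusted p = 0.118) and at 104.4 ± 6.33 against 93.7 ± 5.45 CPM (adjusted p = 0.206). Of the exon bases of C1s1, 18.4% are shared with an antisense gene. Fcna, a ficolin of the lectin route that macrophages also make, rose 2.06-fold from 1.68 ± 0.447 to 3.48 ± 0.707 CPM (adjusted p = 0.0297). That call was lost without control 2 or labelled mutant 1, 2 or 3 (adjusted p up to 0.0917) and without controls 2 and 3 (0.101). In the same libraries 4 of 10 macrophage genes were called higher. Of those not called, Siglecf and Adgre1 had log2 fold changes above 0, and Csf1r, Marco, Ccr2 and Lyz2 below 0. The part of macrophages in C1qc and Fcna was not tested. The other lectin route genes with the highest levels, Masp1 and Mbl1, were at 4.40 ± 0.363 against 4.95 ± 0.837 CPM and at 3.44 ± 1.42 against 2.46 ± 0.423 CPM, with adjusted p of 0.546 and 0.360.

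Downstream of Hc, 0 of 3 measured terminal genes were called by edgeR, DESeq2 or limma-voom, and 0 had an unadjusted p under 0.05. C7 stood at 235.6 ± 38.5 and 275.5 ± 10.8 CPM and C6 at 58.0 ± 6.07 and 63.8 ± 4.16 CPM (SD, n = 4 each), with adjusted p of 0.243 and 0.343. C8b and C9 had 0 counts in all 8 libraries, which allows up to 0.136 to 0.207 CPM in a library. Cfp, which encodes properdin, the stabiliser of the alternative route's enzyme, stood at 27.3 ± 2.98 and 32.1 ± 4.97 CPM with an adjusted p of 0.263.

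On the membrane, Csmd1 rose 1.87-fold from 0.937 ± 0.267 to 1.75 ± 0.149 CPM (SD, n = 4 each, adjusted p = 0.0444), a call lost without control 2 or 4 or any 1 labelled mutant (adjusted p up to 0.129), without controls 1 and 4 (0.0691) and without controls 2 and 3 (0.0587). Susd4, another regulator, stood at 21.2 ± 2.65 and 20.9 ± 3.40 CPM with an adjusted p of 0.936. Of 8 measured receptors 0 were called by edgeR or limma-voom, with 1 lower at an unadjusted p under 0.05 and 1 called lower by DESeq2. Cd93, an endothelial surface protein once described as a C1q receptor, stood at 781.3 ± 183 and 541.4 ± 76.0 CPM (adjusted p = 0.0922). In the same libraries 4 of 8 endothelial genes were called lower, against 2.36% of all genes tested. The other 4 were not called, among them Vwf with a log2 fold change of -0.05, and the list's median was -0.43. The part of endothelial cells in the level of Cd93 was not tested. Itgb2, the shared chain of the complement receptors on leukocytes, stood at 95.2 ± 39.4 and 93.8 ± 8.63 CPM (adjusted p = 0.966), with control 1 the highest at 154.0 CPM.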

How the data were processed

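The deposited values are raw counts of read pairs per gene, made with featureCounts 1.6.2 on GENCODE release M25 (GRCm38) without strand, per the file headers. Under these settings reads mapping to several places or fitting more than 1 gene equally were not counted. Per the submitters' processing notes, STAR, Bowtie2 and Cufflinks were also used. Kits with and without strand are named in the labels. Exon lengths were taken from the deposited table, an other kind of column that is no measurement.

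Symbols came from GENCODE M21, which matched 99.53% of identifiers. Low genes were removed by filterByExpr (at least 10 counts, 15 in total). The rest were scaled with TMM and tested with edgeR 4.0.16 (R 4.3.3; quasi-likelihood, robust, group as the only term) over 16964 genes, adjusted by Benjamini and Hochberg (threshold 0.05). The standard error is the log2 fold change over the square root of F. The test was tried on simulated data. Intervals and floors cover counting error or library spread only. Libraries of a group differed by 4.72 to 45.3 in chi-square per gene, so none was taken as a copy of another and each was counted once. These values cannot show whether the libraries are separate animals.

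Alternatives were other scalings, filters, DESeq2 1.42.0, limma 3.58.1 (voom), a replicate block, removal of GC trends and the omission of libraries. The members and lists were chosen with earlier results of these data known. The naming rule took the 8 members, called complement genes and the 2 most abundant others of each role. The most abundant gene of each marker list was included. Added were the 3 genes most like a called member (average log2 CPM of at least 1), and Cdh1, Epcam, Pecam1 and Ptprc. Adipoq, Pparg, Plin1, Lep, Cd68, Mrc1, Chil3, Cd14, Csf1r, Marco, Ccr2, Siglecf, Adgre1, Gm20547, Gm13449, Gm16083, C1qa, C1qb, C8b, C9, C4a, C4bp, Colec10, Cd55b and Cd59b fall outside this rule and were chosen after their values were seen. Of the complement genes this rule names, 1 is not reported or drawn here. The most abundant marker gene is given with values only for the fat cell, hepatocyte, endothelial and macrophage lists.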

Additional observations from a re-analysis of the deposited data

Results flagged for a closer look

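Among 56 groups of 4 libraries, for 28 complement genes, 4 held a library whose gap to its nearest neighbour exceeded Dixon's critical value at 95% confidence. Chance flags about 1 in 20 groups. Cfd in labelled mutant 3 stood at 32.9 CPM, against 66.4 to 71.4 CPM in the other labelled mutants. Cd55 in control 2 stood at 74.1 CPM, against 67.1 to 67.3 CPM in the other controls. Control 1 stood apart for Serping1, at 451.2 CPM against 599.9 to 606.1 CPM, and for Itgb2, at 154.0 CPM against 69.8 to 79.3 CPM.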

How the results depend on the processing

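With 1 library left out, the calls over all genes ranged from 515 to 1517 higher and 146 to 1117 lower, those among members from 1 to 2 higher and 0 to 2 lower, and those among the other complement genes from 1 to 9 higher and 0 to 6 lower. Log2 fold changes then ranged from -0.0887 to 0.14 for C3, -0.17 to 0.17 for C4b, -0.24 to 0.0308 for Cfb, -0.87 to -0.50 for Cfd, 0.69 to 1.08 for Hc, -0.0365 to 0.0334 for Cd55 and -0.55 to -0.25 for Cd59a. DESeq2 called 2 members higher, with Hc at 0.92, 4 other complement genes lower and 939 genes lower in all. Without controls 1 and 4, 2 members were higher and 1 lower (Hc 0.77, Cd59a -0.55), 8 other complement genes higher and 8 lower, and 3750 and 3338 of all genes. Without controls 2 and 3, 1 other complement gene was higher and 0 lower (edgeR), 223 genes were lower in all, and C4b, Cfb and Cd55 turned to 0.20, 0.0332 and 0.0356. Without control 1 and labelled mutant 4, 4 other complement genes and 625 genes in all were lower, and Cfb turned to 0.0645. Total count scaling, limma-voom and removal of GC trends each left 1 other complement gene lower. C4b turned to 0.002 with total count scaling, and Cd55 to 0.0583 there, 0.0061 without a filter, 0.0004 with a filter of 1 CPM in 4 libraries and 0.0449 with GC trends removed. The cause was not tested. With the replicate number as a replicate block, 2 other complement genes were higher and 1 lower, and Cfi kept its call (adjusted p = 0.00142 by edgeR's quasi-likelihood test). Same-numbered libraries correlated at 0.007, 0.129, -0.123 and 0.134 in their deviations, and 2 of 4 controls correlated best with the labelled mutant of their own number. Whether same-numbered libraries share more than a number cannot be told from these values. For genes near 0, such as Cfi in controls, depth limits the size of a fold.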

Other observations

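Of the 50 other complement genes, 15 lay under the filter on low counts, and the CPM of 2 of them did not overlap between groups. Among all genes that passed the filter the share without overlap was 16.8%. C4bp, which encodes the C4b-binding protein, a plasma cofactor of factor I, had 2 to 6 counts per control library and 10 to 12 per labelled mutant, or 14 and 45 in all. Tested by edgeR without a filter, C4bp had a log2 fold change of 1.6 ± 0.44 (SE, adjusted p = 0.0373), the only call among the 15. That fit called 1059 genes higher and 466 lower of the 32761 it tested. Colec10, a collectin of the lectin route, had 43 counts in controls and 20 in labelled mutants, with a log2 fold change of -1.16 ± 0.41 (SE, adjusted p = 0.132).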
